A study of Mus musculus with 6 samples.

Results

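Late presomitic mesoderm, written Late PSM in the deposited cell annotation, is a cluster of stembryo cells that the authors named. Its members were taken as all cells that carry this name, which gave 1860 of the 26968 cells in the series. Stembryos are aggregates of wild-type mouse embryonic stem cells that elongate like the posterior end of an embryo after a pulse of the Wnt agonist Chiron. Cells of pooled wild-type stembryos had been profiled by droplet single-cell RNA-seq at 120 h (2 whole libraries, and 1 pool that was cut in front and rear, giving 1 library of the anterior and 1 of the posterior part) and at 96 h after aggregation (2 whole libraries). Stembryos that failed to elongate had been discarded at 120 h, so any comparison between the times includes this selection. Each library came from a pool of many stembryos, and the labels name the cells only as wild-type mES cells. The labels do not say whether the replicates were separate cultures. The p-values rest on counting error and on the spread between these libraries, which may be technical. With so few libraries, edgeR shares that spread over genes.

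The presomitic mesoderm is the unsegmented tissue on either side of the neural tube from which somites, the precursors of vertebrae, ribs and trunk muscle, are cut off one pair after another. FGF and Wnt signals from the tail bud keep its posterior cells immature, while a segmentation clock of Notch targets, with Hes7 and Lfng at its core, oscillates through it. At its anterior end, where FGF falls and retinoic acid rises, Tbx6 and Notch switch on Mesp2, whose product sets the next segment border, and Ripply factors then end the expression of both. A cell thus passes from early presomitic mesoderm through its late part to the determination front and the somite, and clusters bearing those names were also present in the annotation.

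Late PSM cells were found in the posterior part and not in the anterior part of the dissected pool. They made up 16.1% of the posterior part (1269 of 7887 cells; 95% exact Clopper-Pearson interval 15.3 to 16.9%) and 0 of 3944 cells of the anterior part, where 3 cells would be a share of 0.0761% and the exact upper limit is 0.0935%. In whole stembryos at 120 h the share was 8.77% (427 of 4867) in replicate 1 (interval 7.99 to 9.60%) and 4.10% (110 of 2683) in replicate 2 (3.38 to 4.92%). At 96 h it was 0.992% (49 of 4938) in replicate 1 (0.735 to 1.31%) and 0.189% (5 of 2649) in replicate 2 (0.0613 to 0.440%). Both whole libraries at 120 h lay above both at 96 h, but the 2 replicates differed from each other by more than counting error at each time. These intervals and limits cover counting error only.

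**Figure D1:**
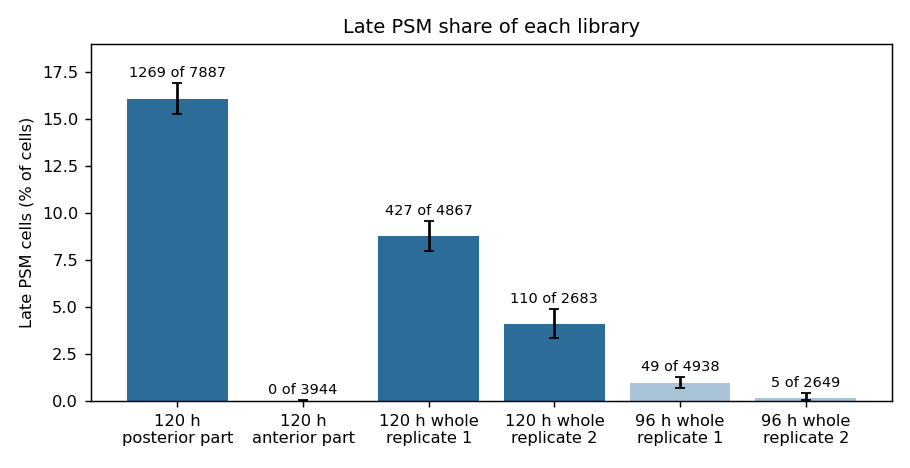
Share of cells named Late PSM in each library, with exact 95% intervals for counting error and the number of cells above each bar. The posterior part has the highest share, 16.1%, and the anterior part has 0 of 3944 cells.

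The libraries held 2649 to 7887 cells, and the Late PSM cells had median totals of 6412 to 18919 UMIs per cell (unique molecular identifiers, 1 for each captured transcript). Fewer UMIs per cell had been read in replicate 2 than in replicate 1 at either time. Late PSM cells of different libraries shared 0 cell barcodes. The 5 Late PSM cells of replicate 2 at 96 h were too few to sum, so levels at 96 h rest on the 49 cells of replicate 1. Levels are UMIs summed over the Late PSM cells of a library, given as CPM (the usual scaling of a gene's count to a fixed library total) after TMM adjustment. Genes that mark other cell types were low. The 12 endoderm genes summed to 5.82 to 16.2 CPM in Late PSM cells of the 4 libraries, the 10 pluripotency and germ cell genes to 3.46 to 5.07 CPM and the 6 notochord genes to 0.828 to 2.44 CPM. The 12 neural genes summed to 105 to 218 CPM, of which Ncam1 gave 72.7 to 168 CPM and Sox2 17.3 to 33.8 CPM. The 7 measured endothelium and blood genes summed to 5.80 to 10.3 CPM in Late PSM and 7.83 to 14.4 CPM in the remaining cells. The 10 heart and lateral mesoderm genes were higher in Late PSM in each library, at 5.57, 6.67 and 7.45 CPM in the posterior part, replicate 1 and replicate 2 at 120 h and 5.77 CPM at 96 h, against 2.90, 2.25, 2.51 and 4.92 CPM in the remaining cells. The part of these genes in the results was not tested.

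The 6 genes given as markers of this cluster were Mesp1 and Mesp2, the paired transcription factors of the segment border; Dll3, a Notch ligand that acts within the cell; Aplnr, the apelin receptor; and the adhesion proteins Mpzl2 and Ajap1. All 6 were at least 2-fold higher in Late PSM than in the remaining cells in each of the 3 libraries at 120 h that held such cells. Over all genes, 1.06% of the 9250 measured met that criterion upwards and 1.12% downwards, and since the clusters were drawn from these same cells, the counts are a description with no test. Mesp1 had 132 CPM in Late PSM of the posterior part, 87.3 CPM in whole replicate 1 and 22.4 CPM in whole replicate 2, and Mesp2 had 76.7, 37.9 and 14.9 CPM in the same order. Both genes therefore differed by over 5-fold between libraries of the same age, with whole replicate 2 the lowest. Dll3 was steadier, with 349, 240 and 225 CPM. Over the 3 libraries this gave 80.5 ± 55.1 CPM for Mesp1, 43.2 ± 31.2 CPM for Mesp2 and 272 ± 67.8 CPM for Dll3 (SD, n = 3).

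The name Late PSM held against its markers only in part. Of the 6, 0 were at least 2-fold higher than in Early PSM in each library compared at 120 h, beside 0.794% of all genes. Against the Determination front 3 were, beside 1.35%. Dll3 was highest in Late PSM in each of the 4 libraries with enough cells, at 349 CPM in the posterior part against 328 CPM in Early PSM, its nearest neighbour, but in whole replicate 2 the pair was level (225 and 224 CPM). Mesp2 was highest in Late PSM in whole replicate 1 (37.9 CPM, against 19.1 CPM in the Determination front), but in the posterior part Late PSM and the Determination front were level (76.7 and 79.3 CPM). In whole replicate 2, Mesp1 and Mesp2 of Late PSM (22.4 and 14.9 CPM) stood below the Determination front (31.1 and 21.9 CPM), and Early PSM, with 30 cells, had the highest level of both (53.8 and 32.9 CPM). Ajap1 was level with the Determination front (48.7 and 52.2 CPM in the posterior part). Mpzl2 was level with Early PSM (25.7 and 25.3 CPM in the posterior part, 16.6 and 17.9 CPM in whole replicate 2). Aplnr was level with Early PSM in whole replicate 2 (25.7 and 26.9 CPM) but higher in the posterior part (32.1 and 13.3 CPM). By median fold over the remaining cells at 120 h, the first 10 genes were Tbx6, Lor, 2610528A11Rik, Mesp1, Fgf3, Dll3, Aplnr, Mpzl2, Dll1 and Rnf213, of which 4 are markers of the cluster.

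**Figure D2:**
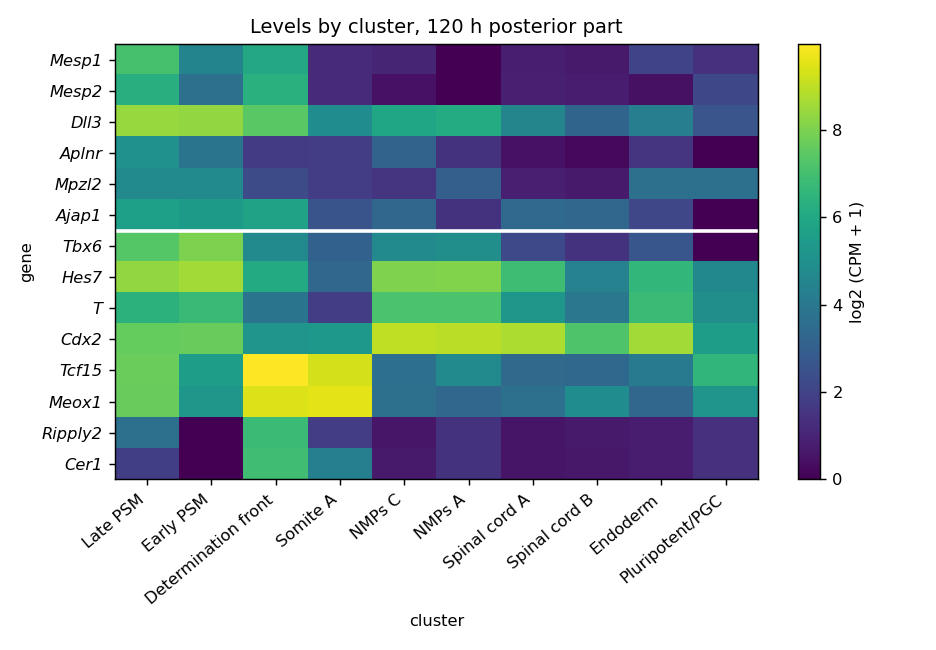
Levels of 14 genes in each cluster of the posterior part at 120 h with at least 20 cells, as log2 of CPM plus 1; the 6 marker genes are above the white line. Mesp1 and Mesp2 stand out in Late PSM and the Determination front, Tbx6 in Late PSM and Early PSM, and Tcf15, Meox1 and Ripply2 are higher in the Determination front than in Late PSM.

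Besides the markers, Late PSM was high in Tbx6 and in Notch genes known from unsegmented mesoderm when set against the pooled remaining cells. The 15 genes with the most steadily higher level than in the remaining cells at 120 h were led by Tbx6, the T-box factor that keeps these cells mesodermal, with 160, 113 and 93.5 CPM in Late PSM of the posterior part, replicate 1 and replicate 2, against 14.0, 7.28 and 4.02 CPM in the remaining cells. The Notch ligand Dll1 had 220, 344 and 247 CPM in Late PSM, against 26.1, 48.1 and 32.5 CPM. The clock repressor Hes7 had 324, 250 and 231 CPM in Late PSM, against 124, 54.0 and 49.5 CPM. These genes were picked by their ratios in the same libraries, so their gaps are a description only. The others were Cited1 (a transcriptional coactivator), Pcdh19 (a protocadherin), Rspo3 (a secreted enhancer of Wnt signalling), Crabp1 (which binds retinoic acid), Lmo2, Btg2, Ddit4, Inka1, Ypel3, Dll3, and the unnamed genes 2610528A11Rik and Gm45889. Cited1 was higher in Early PSM than in Late PSM of the posterior part (607 and 370 CPM) and replicate 2 (293 and 220 CPM). Hes7 was higher in Early PSM of the posterior part (385 and 324 CPM) and lower in that of replicate 2 (206 and 231 CPM). The 5 with the most steadily lower level were Igfbp5, the imprinted gene Mest, the glucose transporter Slc2a3, the neural factor Sox2 and the ephrin receptor Epha5. At 96 h, where most remaining cells were of the clusters Early PSM and NMPs A, the differences in Tbx6 and Hes7 were small: Tbx6 had 111 CPM in Late PSM of replicate 1 and 94.9 CPM in the remaining cells, and Hes7 267 and 288 CPM.

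By list, Late PSM was at least 2-fold above the remaining cells in each library for 8 of 14 measured presomitic genes and below them for 2 (Cyp26a1 and Apela), with a median log2 ratio of 1.87 beside -0.06 over all genes. Of 15 Notch and clock genes, 4 were higher (Dll1, Dll3, Hes7 and the feedback inhibitor Nrarp) and 1, Hes1, was lower. Of 13 Wnt genes, 3 were higher (Lef1, Nkd2 and Dkk1) and 0 lower. Of 12 somite genes, 1 (Foxc1) was higher and 4 (Pax3, Foxd1, Uncx and Cdh11) were lower. Of 19 FGF genes, 3 ligands (Fgf3, Fgf4 and Fgf15) were higher, and Fgfr2 and Spry1 were lower. Msgn1, a mesodermal factor known from the presomitic mesoderm of the mouse embryo, was nearly absent, at 1.31, 2.41 and 0.828 CPM in Late PSM of the posterior part, replicate 1 and replicate 2, and at 5.33 CPM in Early PSM of the posterior part.

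Early PSM, by its name the cluster before Late PSM along the axis, held less Arg1 and more Phlda2 and Lmo2. At 120 h it could be compared in the posterior part (58 Early PSM cells) and whole replicate 2 (30 cells), and 0.794% of 9199 genes were at least 2-fold higher in Late PSM in both and 0.304% lower. These counts rest on few Early PSM cells: 73 genes were higher with both libraries, against 893 in whole replicate 2 alone and 429 in the posterior part alone, and 28 were lower, against 890 and 149. The clearest was Phlda2, an imprinted growth regulator, with 10.6 and 4.97 CPM in Late PSM of the posterior part and replicate 2, against 58.7 and 50.8 CPM in Early PSM. Lmo2, a LIM-domain cofactor, had 87.6 and 93.5 CPM in Late PSM, against 325 and 191 CPM, and the Wnt target Sp5 had 96.3 and 45.5 CPM, against 163 and 102 CPM, under 2-fold in the posterior part. Each was also lower in Late PSM at 96 h, where replicate 1 held 49 Late PSM and 2006 Early PSM cells (Phlda2 136 and 221 CPM, Lmo2 66.9 and 282 CPM, Sp5 92.3 and 184 CPM). Tbx6 was under 2-fold lower (160 and 93.5 CPM, against 253 and 129 CPM at 120 h), as were the Wnt feedback genes Nkd1 and Dact1 and the genes Phlda1, Btg2, Dpysl5 and Crabp1. Arg1, the arginase of the urea cycle, was the clearest gene in the other direction, with 77.4 and 64.6 CPM in Late PSM, against 24.0 and 17.9 CPM in Early PSM. Fgf18, an FGF ligand, had 51.7 and 26.5 CPM, against 5.33 and 2.99 CPM, and the ephrin ligand Efnb2 had log2 ratios of 2.04 and 1.21. In Early PSM of replicate 2, 1 UMI is 2.99 CPM. Fgf18 thus rests on few counts in Early PSM, as does Arg1 in replicate 2. Ripply2 and the somite gene Pax3 were also over 2-fold higher in Late PSM, from few counts in Early PSM. Osgep, Ift74, Man1a2, Rnf220, Gemin6, Gm26917, Hoxa7, Meis2 and Mest were the others most steadily higher. The median log2 ratio of the presomitic list was 0.14 beside 0.07 over all genes.

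Against the Determination front, which follows it along the axis, Late PSM was higher in tail bud genes and lower in genes of the forming somite. Over 9139 genes, 1.35% were at least 2-fold higher in Late PSM in each of the 3 libraries and 1.72% lower. Of 13 measured tail bud genes, 8 were higher in Late PSM and 0 lower, with a median log2 ratio of 1.39 beside -0.04 over all genes: the T-box gene T (83.3, 71.2 and 83.6 CPM in Late PSM of the posterior part, replicate 1 and replicate 2, against 13.4, 7.67 and 7.15 CPM), the caudal factor Cdx2 (194, 97.4 and 91.1 CPM, against 35.6, 13.5 and 12.2 CPM), Cdx4, Fgf8, Wnt5b, Sp5, Sp8 and Nkx1-2. Of 14 somite genes, 11 were lower and 0 higher, with a median of -2.20. Tcf15, the paraxis gene of the epithelial somite, had 208, 233 and 160 CPM in Late PSM, against 1004, 1063 and 810 CPM in the Determination front. Cer1, a secreted BMP and Nodal inhibitor, had 2.63, 0.426 and 0 CPM, against 118, 54.0 and 71.9 CPM. Ripply2 had 11.9, 12.6 and 8.28 CPM, against 109, 95.3 and 73.2 CPM. The levels of Mesp2 overlapped between the clusters (76.7, 37.9 and 14.9 CPM in Late PSM, against 79.3, 19.1 and 21.9 CPM).

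The FGF list was split by ligand. Fgf3, Fgf4, Fgf8 and Fgf17 were higher in Late PSM than in the Determination front in each library, and Fgf18, Fgfr1, Fgfr2 and Spry1 were lower. Dkk1 and Notum, both secreted Wnt antagonists, were higher in Late PSM, at 14.7, 13.1 and 14.9 CPM for Dkk1 in the posterior part, replicate 1 and replicate 2, against 0.404, 0.197 and 0 CPM in the Determination front. In the retinoic acid list, the receptor Rarg and the binding protein Crabp2 were higher in Late PSM, and Aldh1a2, which makes retinoic acid, and Nr2f2 were lower. Foxb1, a forkhead gene, stood first among the 10 genes most steadily above the Determination front at 50 CPM or more (124, 103 and 99.3 CPM, against 14.2, 6.59 and 9.67 CPM), followed by Gm45889, Tbx6, T, Cdx2, Limch1, Rspo3, Hes7 and 2610528A11Rik. Prrx2, Tfpi, Uncx, Foxd1, Pcdh8, Plin3, Ebf1 and Tagln2 joined Cer1 and Ripply2 on the lower side. Hoxaas3, an antisense transcript of the HoxA cluster, was also one of these (797, 634 and 519 CPM, against 125, 59.9 and 64.3 CPM). The strand setting of the counting is not given in the sources used here, so its reads may be shared with overlapping genes.

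**Figure D3:**
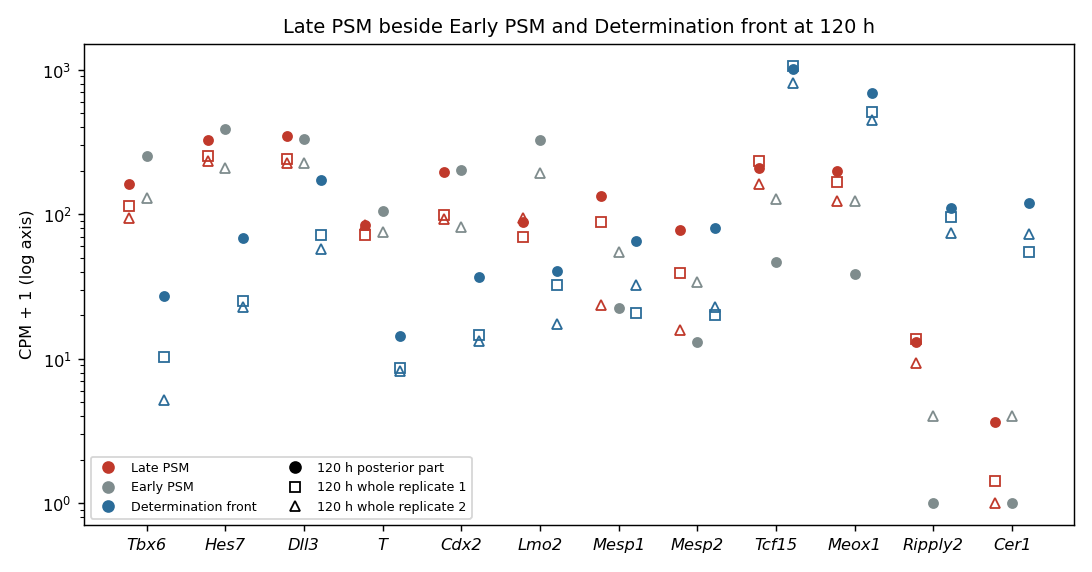
Levels of 12 genes at 120 h in Late PSM, Early PSM and the Determination front, on a log axis of CPM plus 1; each point is 1 library. Tbx6, Hes7, T and Cdx2 of Late PSM lie near Early PSM and above the Determination front, Tcf15, Ripply2 and Cer1 lie below the Determination front, and the points of Mesp2 overlap.

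Not all Late PSM cells carried the segment border genes. To compare libraries, each cell was thinned to 5000 UMIs, which left out 11 cells of whole replicate 2 at 120 h. A Mesp2 UMI was then found in 16.2% of Late PSM cells of the posterior part (205 of 1269), 9.13% of replicate 1 (39 of 427) and 4.04% of replicate 2 (4 of 99), with exact intervals of 14.2 to 18.3%, 6.58 to 12.3% and 1.11 to 10.0%. Without thinning these shares were 25.3%, 17.3% and 11.8%. At 96 h, 20.4% of the 49 cells of replicate 1 held one (interval 10.2 to 34.3%). In Spinal cord cells, which should lack Mesp2, the thinned share was 0.312%, 0.379% and 0.132% in the same libraries, and their median depths were 14074, 15940 and 9423 UMIs, against 12664, 15808 and 8973 UMIs in Late PSM. Hes7 was found in 67.8%, 58.1% and 66.7% of Late PSM cells and Tcf15 in 39.4%, 41.5% and 45.5%. Posterior Late PSM cells with a Mesp2 UMI held a Mesp1 UMI in 60.0% of cases and those without in 17.0%. They held a Tcf15 UMI in 82.9% of cases and those without in 31.0%, whereas Tbx6 was found in 31.2% and 51.4%. In replicate 1 the shares were 82.1% and 37.4% for Tcf15 and 17.9% and 40.5% for Tbx6.

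The Mesp2-positive cells were therefore compared with the Mesp2-negative cells of the same library across all genes, in the posterior part and whole replicate 1 at 120 h. With edgeR and the library as a term, 437 of 11223 genes differed at an adjusted p under 0.05: 198 (1.76%) were higher and 239 (2.13%) lower in Mesp2-positive cells. Mesp2 itself defined the cells and was left out. Mesp1 (chr7:79792241-79793788, minus strand), which lies 16939 bases from Mesp2 (chr7:79810727-79813439, plus strand) on mm10, had the largest rise among genes at a mean of at least 20 CPM, with 377 and 370 CPM in Mesp2-positive cells of the posterior part and replicate 1, against 72.0 and 57.3 CPM in Mesp2-negative cells (log2 change 2.48 ± 0.07 SE, adjusted p = 4.9e-230). Ripply2, the repressor that ends Mesp2 expression, had 26.2 and 56.4 CPM, against 8.16 and 7.98 CPM (2.07 ± 0.21, adjusted p = 9.3e-20). Of 13 measured somite genes, 10 were higher and 0 lower, with a median log2 change of 1.44 beside -0.01 over all genes. Tcf15 had 506 and 619 CPM, against 132 and 192 CPM (1.84 ± 0.06, adjusted p = 9.9e-202), and Meox1, a homeobox gene of the somite, 476 and 425 CPM, against 127 and 137 CPM (1.82 ± 0.06). Foxc2, Twist1, Aldh1a2 and Pax3 rose as well. In both libraries each of these genes was higher in the Mesp2-positive cells.

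Tail bud genes and FGF ligands moved the other way. Of 15 measured tail bud genes, 8 fell and 0 rose, with a median of -0.97. Cdx2 had 74.4 and 22.3 CPM in Mesp2-positive cells of the posterior part and replicate 1, against 205 and 105 CPM in Mesp2-negative cells (-1.55 ± 0.10, adjusted p = 1.8e-50), and T had 33.8 and 31.2 CPM, against 87.5 and 75.2 CPM (-1.35 ± 0.13, adjusted p = 2.6e-21). Cdx1, Cdx4, Sp5, Wnt3a, Fgf8 and Greb1 also fell. Fgf17 had 16.9 and 11.9 CPM, against 60.4 and 57.4 CPM (-1.91 ± 0.17), and Fgf3 25.8 and 10.4 CPM, against 87.4 and 52.1 CPM (-1.83 ± 0.15). Fgf4 had 0.689 and 0 CPM, against 20.2 and 11.7 CPM. Fgf18 rose, with 129 and 122 CPM, against 32.1 and 26.8 CPM (2.06 ± 0.11, adjusted p = 5.3e-68), so the 19 FGF genes gave 3 higher and 7 lower. The Hox genes of paralog group 9 gave 0 higher and 3 lower of 4 (Hoxa9 -0.84 ± 0.14, Hoxc9 -0.53 ± 0.10 and Hoxd9 -0.57 ± 0.11), and Hoxb9 had -0.01 ± 0.07.

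Of 17 Notch and clock genes, 7 rose and 1 fell in Mesp2-positive cells. Lfng, which glycosylates Notch, had 52.7 and 57.9 CPM in Mesp2-positive cells of the posterior part and replicate 1, against 24.0 and 25.5 CPM in Mesp2-negative cells (1.15 ± 0.15, adjusted p = 3e-12). The Notch targets Hey1 (1.35 ± 0.13) and Hes5 (1.12 ± 0.14) rose as well, as did Dll1, Notch1, Hes1 and Nrarp by less. Hes7 fell (-0.31 ± 0.07, adjusted p = 0.00017), although replicate 1 had 257 CPM in Mesp2-positive and 249 CPM in Mesp2-negative cells. Dll3 had 351 and 205 CPM, against 324 and 243 CPM (0.03 ± 0.06, adjusted p = 0.925). Tbx6 fell (100 and 34.2 CPM, against 160 and 121 CPM; -0.85 ± 0.09, adjusted p = 8e-17). Among the marker genes of the cluster, Aplnr fell (-1.28 ± 0.21) and Ajap1 rose (0.44 ± 0.14). The ephrin ligand Efnb2 (1.93 ± 0.17), the protocadherin Pcdh8 (1.66 ± 0.17), the stress gene Gadd45g (2.26 ± 0.13), Ebf1 and Cxcl12 complete the 10 genes that rose most among those at a mean of at least 20 CPM, and Dlc1, Gnal and Lmo2 the 10 that fell most. Of 14 ephrin genes, 2 fell, Epha4 (-0.49 ± 0.13) and Efna1 (-2.49 ± 0.27), and 1 rose, Efnb2. Among FGF feedback genes and targets, Spry2 rose (0.78 ± 0.12) and Etv5 fell (-0.61 ± 0.17).

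**Figure D4:**
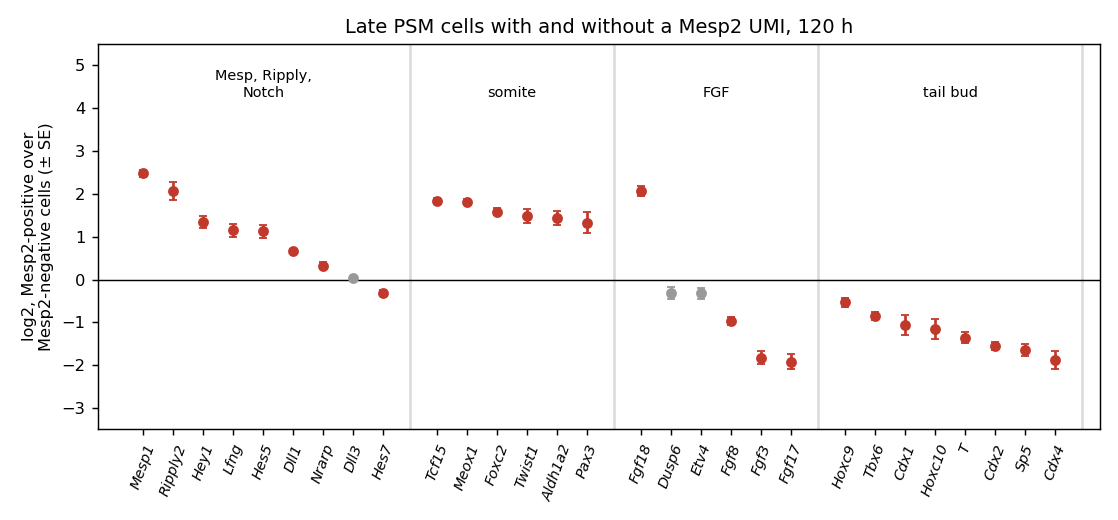
Log2 change of 29 genes in Mesp2-positive over Mesp2-negative Late PSM cells at 120 h, with standard errors; red points have an edgeR adjusted p under 0.05, grey points do not. Somite genes lie between 1.32 and 1.84, and the tail bud genes shown are all below 0.

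Status was called after each cell was thinned to 5000 UMIs. Before thinning, the median was 12686 UMIs in Mesp2-positive and 12664 UMIs in Mesp2-negative cells of the posterior part, and 16270 and 15790 UMIs in replicate 1. With status called from all UMIs, the medians were 13218 and 12491 UMIs in the posterior part and 15987.5 and 15775 UMIs in replicate 1, and the part of depth in the result was not tested. Of the neural, endoderm, pluripotency and endothelium and blood lists, 0 of 6, 0 of 1, 0 of 1 and 0 of 1 measured genes passed the test. Of the heart and lateral mesoderm list 1 gene could be measured, Foxf1, and it rose (5.17 and 8.91 CPM in Mesp2-positive cells of the posterior part and replicate 1, against 2.13 and 2.35 CPM in Mesp2-negative cells; 1.46 ± 0.45). Of 8 stress and immediate early genes, Jun (1.05 ± 0.15) and Jund (0.63 ± 0.11) rose and Ier2 (-0.56 ± 0.11) and Egr1 (-1.86 ± 0.50) fell. Their part in the result was not tested. The comparison rests on 2 libraries, with 39 and 205 Mesp2-positive cells, and leaves 1 residual degree of freedom. Its very small p-values therefore rest on counting error and on a spread shared over genes. They say little about how far libraries differ. DESeq2 called 72 genes, all of them among the 437, and edgeR without the library term called 0, with 244 genes at an unadjusted p under 0.05; Aplnr lost its call in both.

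Promoters of the 3 genes at the segment border that were higher together, or that defined the comparison, are shown with the T-box half-site TCACACC in capitals, searched on both strands. They run from 250 bases before to 50 bases after the gene start in RefSeq on GRCm38.p6. This motif occurs in 3.98% of the 32851 promoters of the same length. It was found in the windows of Mesp1 (chr7:79793541-79793840, minus strand) and Ripply2 (chr9:87015287-87015586, plus strand) and not in that of Mesp2 (chr7:79810477-79810776, plus strand), and a match describes the sequence only.
Mesp2: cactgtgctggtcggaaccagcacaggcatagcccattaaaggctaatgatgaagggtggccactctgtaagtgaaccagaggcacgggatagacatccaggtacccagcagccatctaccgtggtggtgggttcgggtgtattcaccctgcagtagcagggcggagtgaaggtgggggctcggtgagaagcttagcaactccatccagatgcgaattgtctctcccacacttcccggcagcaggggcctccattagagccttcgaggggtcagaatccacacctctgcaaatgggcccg
Mesp1: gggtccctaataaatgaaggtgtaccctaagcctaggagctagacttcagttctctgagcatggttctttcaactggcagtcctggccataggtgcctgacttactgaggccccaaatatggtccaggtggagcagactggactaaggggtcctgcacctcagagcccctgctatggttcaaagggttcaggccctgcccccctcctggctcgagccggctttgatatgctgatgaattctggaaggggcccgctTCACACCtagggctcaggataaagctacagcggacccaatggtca
Ripply2: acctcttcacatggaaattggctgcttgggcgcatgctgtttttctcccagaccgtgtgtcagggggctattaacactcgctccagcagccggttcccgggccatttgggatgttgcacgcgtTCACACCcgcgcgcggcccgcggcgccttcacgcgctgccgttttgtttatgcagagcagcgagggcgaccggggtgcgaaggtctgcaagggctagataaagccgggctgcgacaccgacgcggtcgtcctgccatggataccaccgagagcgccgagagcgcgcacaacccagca

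The clock gene Hes7 was used for the same kind of comparison, in 3 libraries at 120 h. After thinning, Hes7-positive cells numbered 860 in the posterior part, 248 in replicate 1 and 66 in replicate 2, against 409, 179 and 33 Hes7-negative cells. Without thinning, 1134, 349 and 86 cells held a Hes7 UMI, in the same order, and 135, 78 and 24 did not. Many of the Hes7-negative cells thus held a Hes7 UMI that was lost in thinning, and the name does not mean that Hes7 was absent. With edgeR, 76 of 10776 genes differed: 31 (0.288%) were higher and 45 (0.418%) lower in Hes7-positive cells. Lfng had 33.0, 38.1 and 39.4 CPM in Hes7-positive cells of the posterior part, replicate 1 and replicate 2, against 23.5, 18.2 and 25.4 CPM in Hes7-negative cells (0.67 ± 0.12, adjusted p = 3.2e-05), and was higher in each library. Nrarp (0.35 ± 0.06, adjusted p = 3.7e-07) and Dll1 (0.18 ± 0.05, adjusted p = 0.015) rose too, Hes1 fell (-0.37 ± 0.09, adjusted p = 0.02), and the other 12 of 16 Notch and clock genes did not pass the test.

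Tbx6 (0.33 ± 0.06), Cdx2 (0.35 ± 0.06), T (0.30 ± 0.08), Fgf17 (0.43 ± 0.10), Fgf3 (0.32 ± 0.09), Greb1, Hoxc4, Cdk6 and Plxna2 were the other genes that rose among those with the largest changes or on the tail bud list. Ripply2 rose as well (0.94 ± 0.20, adjusted p = 0.00081), with 12.3, 20.7 and 8.75 CPM in Hes7-positive cells of the posterior part, replicate 1 and replicate 2, against 10.2, 2.75 and 8.46 CPM in Hes7-negative cells, a gap that was wide in replicate 1 alone. Of 11 somite genes, 7 fell and 0 rose, with a median of -0.60 beside 0.00 over all genes. Meox1 had 162, 137 and 97.8 CPM in Hes7-positive cells of the posterior part, replicate 1 and replicate 2, against 258, 215 and 214 CPM in Hes7-negative cells (-0.69 ± 0.05, adjusted p = 4.9e-35). Pax3 (-1.31 ± 0.18), Twist1 (-0.86 ± 0.14) and Tcf15 (-0.45 ± 0.05) fell, and so did Fst, Igfbp5, Prrx2, Gadd45g and Nr2f2. Mesp2 fell in this fit (-0.47 ± 0.09, adjusted p = 3.2e-05), with 59.8 and 11.7 CPM in the posterior part and replicate 2, against 106 and 16.9 CPM, but in replicate 1 it had 48.1 CPM in Hes7-positive and 27.2 CPM in Hes7-negative cells. Without the posterior part its log2 change was 0.73 (adjusted p = 0.21).

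This comparison depended on each of the larger libraries: 25 genes were called without the posterior part and 22 without replicate 1, against 66 without replicate 2. DESeq2 called 1 gene, Meox1, with 68 genes at an unadjusted p under 0.05, and edgeR without the library term called 0, with 33.

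The promoters of Lfng, the gene that rose most among those at a mean of 20 CPM or more, and of Hes7, which defined the cells, are shown in the same window. Capitals mark the RBPJ motif GTGGGAA of the Notch effector on either strand, which 6.38% of all promoters hold. Lfng lies at chr5:140607091-140607390 and Hes7 at chr11:69120203-69120502, both on the plus strand, and a match is a description of the letters.
Lfng: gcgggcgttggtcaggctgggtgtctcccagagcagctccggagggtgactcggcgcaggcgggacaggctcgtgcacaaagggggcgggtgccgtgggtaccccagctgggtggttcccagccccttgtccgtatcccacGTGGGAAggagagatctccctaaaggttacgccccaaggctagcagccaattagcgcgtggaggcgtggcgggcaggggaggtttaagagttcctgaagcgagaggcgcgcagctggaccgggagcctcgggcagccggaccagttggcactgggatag
Hes7: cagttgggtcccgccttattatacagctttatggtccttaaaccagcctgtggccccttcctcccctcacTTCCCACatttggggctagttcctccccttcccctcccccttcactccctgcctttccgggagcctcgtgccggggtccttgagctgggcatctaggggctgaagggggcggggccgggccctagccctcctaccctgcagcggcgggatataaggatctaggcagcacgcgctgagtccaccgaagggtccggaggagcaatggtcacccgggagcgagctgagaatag

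The next question was what changed between 120 h and 96 h in cells of the same name. With edgeR, 7 of 12030 genes differed between the 3 pools at 120 h and replicate 1 at 96 h: 3 (0.0249%) were higher and 4 (0.0333%) lower at 120 h. With 1 library at 96 h, the spread behind these p-values comes from the 120 h libraries alone, and the library at 96 h is assumed to vary as they do. The 3 that rose were Hox genes of paralog group 9, a family laid out in clusters in which genes nearer the far end come on later. Hoxc9 (chr15:102976439-102985099) had 116, 125 and 110 CPM in the posterior part, replicate 1 and replicate 2 at 120 h, against 2.34 CPM at 96 h (adjusted p = 0.00011). Only 2 UMIs stood behind the level at 96 h, and the ratio of the summed counts was 54.3 with a 95% counting interval of 15.02 to 449. Hoxa9 (chr6:52223100-52231089) had 54.1, 89.5 and 95.3 CPM at 120 h, against 2.34 CPM at 96 h (2 UMIs; ratio 30.3, interval 8.38 to 251; adjusted p = 0.0017). Hoxd9 (chr2:74697727-74700208) had 88.8, 109 and 91.0 CPM, against 8.18 CPM (log2 change 3.56 ± 0.55, adjusted p = 0.0025). The remaining member, Hoxb9 (chr11:96271457-96276595), had 196, 165 and 200 CPM at 120 h and was at 144 CPM at 96 h (0.38 ± 0.37, adjusted p = 1.00).

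In this fit no other Hox gene was called, but a fit with the replicate as a block, given below, called more of them. Hox genes of groups 1 to 4 had a median log2 change of -0.02 over 12 genes and those of groups 5 to 8 of 0.48 over 10 genes, beside 0.06 over all 12030 genes, and members of the second set went either way, with Hoxa5 (-0.48 ± 0.47) and Hoxb6 (-0.41 ± 0.43) lower and Hoxb8 at 164, 171 and 137 CPM in the posterior part, replicate 1 and replicate 2 at 120 h, against 148 CPM at 96 h. Without normalization factors the median over all genes was 0.23. Hoxb1, Hoxb2 and Hoxb4, at 106 to 202 CPM in Late PSM at 120 h, had 139 to 174 CPM at 96 h. Hoxa7 (135, 95.9 and 92.7 CPM at 120 h in the posterior part, replicate 1 and replicate 2, against 35.0 CPM at 96 h; adjusted p = 0.46) and Hoxd8 (40.2, 55.9 and 41.6 CPM, against 12.9 CPM; adjusted p = 0.49) were higher in each library at 120 h without passing it. Hoxc10 had 258, 328 and 16 UMIs at 120 h and 0 UMIs at 96 h, and its adjusted p was 0.16.

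**Figure D5:**
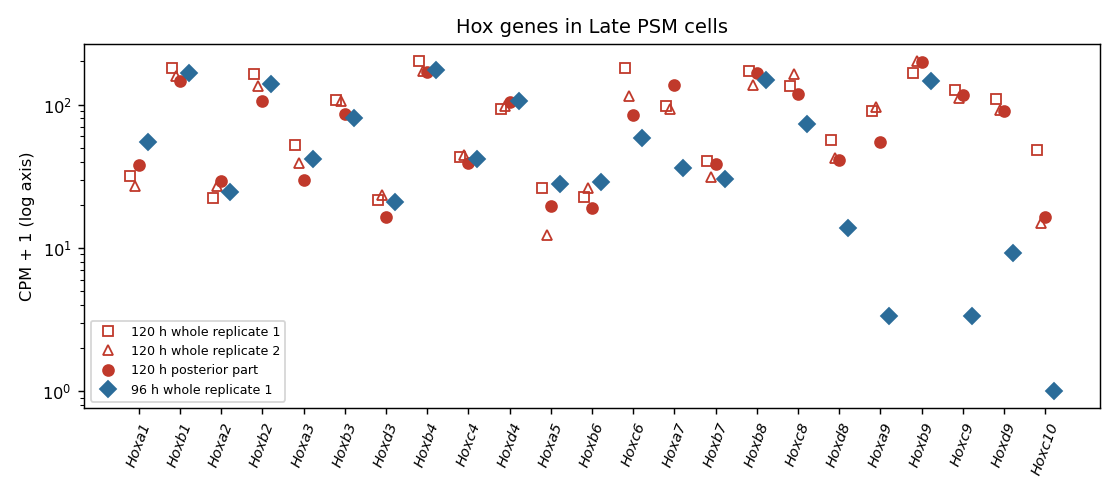
Hox genes with at least 20 CPM in 1 library of Late PSM cells, ordered by paralog group, on a log axis of CPM plus 1; red points are libraries at 120 h, blue diamonds replicate 1 at 96 h. Hoxa9, Hoxc9 and Hoxd9 are far lower at 96 h and Hoxc10, which did not pass the test without a block, is at 0 there. Hoxb9 is near its level at 120 h.

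The genes that fell included Phlda2, Cdx1 and Lhx1. Phlda2 had 10.1, 6.56 and 5.20 CPM in the posterior part, replicate 1 and replicate 2 at 120 h, against 138 CPM at 96 h (-4.11 ± 0.36, adjusted p = 5.2e-07). Cdx1, a caudal factor of the tail bud, had 19.7, 24.4 and 11.3 CPM, against 110 CPM (-2.49 ± 0.37, adjusted p = 0.0017). The LIM-homeobox gene Lhx1 had 15.1, 12.0 and 9.53 CPM, against 59.6 CPM (-2.22 ± 0.38, adjusted p = 0.0097), and DESeq2 did not call it. Each had its highest level at 120 h below that at 96 h. The marker genes of the cluster did not pass: Mesp2 had 73.5, 38.1 and 15.6 CPM at 120 h, against 151 CPM at 96 h (-1.74 ± 0.45, adjusted p = 0.41), Mesp1 -1.49 ± 0.47 and Dll3 0.35 ± 0.37. Of 16 glycolysis and 18 Notch and clock genes, 0 passed in either direction.

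These counts were sensitive to the libraries: 13 genes were called without replicate 1 at 120 h, 19 without replicate 2, and 76 without the posterior part. Equal replicate numbers of the whole libraries mark a shared batch in the annotation, while the dissected pool was a separate batch. With the whole libraries of at least 5 cells and the replicate as a block, 63 genes were called. They included Mesp2 (-1.89 ± 0.28, adjusted p = 8.1e-09), Mesp1 (-1.28 ± 0.30, adjusted p = 0.0053) and Aldh1a2 (-3.01 ± 0.30, adjusted p = 2e-19). Hoxa7 (1.57 ± 0.37), Hoxc6 (1.76 ± 0.35), Hoxd8 (2.18 ± 0.41) and Hoxc10 were also called higher at 120 h. This fit takes in replicate 2 at 96 h, with 5 Late PSM cells and 32622 UMIs. All 7 genes were called without each of these libraries in turn, and 6 of them with the block, where the remaining one had no value. Replicate 1 of both times belonged to 1 batch, and within it Hoxc9 had 125 CPM at 120 h, against 2.34 CPM at 96 h.

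Whether the change over time was particular to Late PSM was tested against the Determination front, chosen because it had the most cells (27) at the time where it was rarer. The clusters were drawn from cells of both times together. With edgeR, the change differed for 84 of 12966 genes, 11 (0.0848%) with a higher and 73 (0.563%) with a lower log2 change in Late PSM. Here too 1 library stands for 96 h and the spread comes from the 120 h libraries alone. Hoxa9, Hoxc9 and Hoxd9, which rose in Late PSM, were not among the genes whose change differed. The 4 Hox genes of paralog group 9 had a median fitted difference of -3.5028, in the direction of a smaller rise in Late PSM. Hoxc9, Hoxa9 and Hoxd9 had only 2, 2 and 7 UMIs in Late PSM at 96 h. The size of this median is therefore not well measured. The rise of Hoxa9, Hoxc9 and Hoxd9 was therefore not shown to be particular to Late PSM. Dll3 had 335, 241 and 234 CPM in Late PSM of the posterior part, replicate 1 and replicate 2 at 120 h, against 212 CPM at 96 h, and 138, 68.3 and 57.5 CPM in the Determination front at 120 h, against 148 CPM at 96 h (difference of log2 changes 1.05 ± 0.23, adjusted p = 0.005). Here the dissected pool counts both parts in the Determination front. Dll1 differed in the same direction (0.93 ± 0.18, adjusted p = 0.00092). Hoxb9 differed in the other (-1.62 ± 0.30, adjusted p = 0.00048), with 156 to 179 CPM in the Determination front at 120 h, against 41.6 CPM at 96 h.

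Of 16 glycolysis genes, 5 had a lower change in Late PSM and 0 a higher one, with a median of -0.34 beside -0.06 over all genes. Ldha, lactate dehydrogenase, had 2060.5, 1507 and 1853 CPM in Late PSM of the posterior part, replicate 1 and replicate 2 at 120 h, against 1261 CPM at 96 h, and 1879, 1309 and 1761 CPM in the Determination front, against 782 CPM (-0.55 ± 0.09, adjusted p = 2.7e-05). The others were Gapdh (-0.36 ± 0.06), Pgk1 (-0.65 ± 0.11), Pgam1 (-0.38 ± 0.09) and Pkm (-0.35 ± 0.09). In Late PSM alone, 0 of 16 glycolysis genes passed the test between the times, which does not show that they were unchanged. Without normalization factors the count of all genes was 43, with 18 higher and 25 lower, and 3 of the 16 glycolysis genes were lower.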

How the data were processed

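Droplet libraries of pooled wild-type stembryos were analysed from the deposited tables. The authors made UMI counts per gene and cell with Cell Ranger 6.0 on mm10 with a modified Ensembl annotation, removed low-quality cells and likely doublets by limits on UMIs and mitochondrial reads, and clustered and named the cells with Seurat 4.0.2. The deposited annotation gives the cell names, the batch and the percent of mitochondrial UMIs. No doublet caller was run here. Cells were assigned to libraries and clusters by that annotation, and the table held 25595 genes and 26968 cells.

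Raw counts were summed per library and cluster where at least 20 cells were present, and tested with edgeR 4.0.16 in R 4.3.3 (quasi-likelihood test, TMM, filterByExpr, Benjamini-Hochberg over all genes tested, calls at 0.05, two-sided). Standard errors were the log2 change over the root of F. Late PSM was compared with other clusters by log2 ratios (1 CPM added) as a description, counting genes at least 2-fold apart in each library at 120 h, with at least 5 CPM in either group. For the time test, the parts of the dissected pool formed 1 sample. Cells were split by a UMI of Mesp2 or Hes7 after thinning to 5000 UMIs and their whole counts were summed, with the library as a term. CPM values beside a test come from that fit, and other CPM values from 1 scaling over all library and cluster sums, so a gene can have slightly different values. Mesp2 or Hes7 was left out of its own comparison. Equal replicate numbers of the whole libraries mark a shared batch in the annotation (batch 1 for replicate 1 and batch 4 for replicate 2 at both times), so a fit with the replicate as a block is given. The anterior and posterior parts, also labelled replicate 1, were batch 2. Over 11222 genes, the deviations of equal numbers at the 2 times correlated by 0.051. The main fits left 2 residual degrees of freedom (1 for Mesp2), and the fit with the replicate as a block left fewer than 2.

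Named genes were the markers, list members chosen by level or role, the 15 most steadily higher and 5 most steadily lower against remaining cells (10 each against the 2 neighbouring clusters, at 50 CPM or more), the 10 largest changes in each direction at a mean of 20 CPM or more, and the 5 largest differences between clusters over time. The members, lists and comparisons were chosen with earlier results of these data known. Some items named by this rule are not reported here. The scripts were tested on simulated data. Promoters are from RefSeq (GRCm38.p6), matched by symbol, and gene positions from GENCODE M21. Alternatives were DESeq2 1.42.0, no normalization factors, no filter, an upper limit of 1.5 times the mean UMIs, 3000 UMIs for thinning, other splits and each library left out.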

Additional observations from a re-analysis of the deposited data

Results flagged for a closer look

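Genes whose change between 120 h and 96 h differed most between Late PSM and the Determination front (edgeR, adjusted over all genes, libraries in the order dissected pool, replicate 1 and replicate 2 at 120 h) are given as values. Fst, the activin inhibitor follistatin, had 13.7, 28.0 and 42.2 CPM in Late PSM at 120 h, against 40.8 CPM at 96 h, and 17.9, 40.5 and 54.5 CPM in the Determination front at 120 h, against 9.05 CPM at 96 h (difference of log2 changes -2.6119, adjusted p = 0.005). Cdkn1a, the cell cycle inhibitor p21, had 85.2, 92.0 and 94.7 CPM in Late PSM, against 104 CPM, and 77.9, 110 and 78.9 CPM in the Determination front, against 25.3 CPM (-2.0389, adjusted p = 0.00028). Gap43, a growth cone protein, had 26.3, 19.1 and 18.9 CPM in Late PSM, against 29.1 CPM, and 12.7, 4.87 and 9.44 CPM in the Determination front, against 48.9 CPM (2.0189, adjusted p = 0.0063). Hoxc8 had 117, 134 and 160 CPM in Late PSM, against 72.2 CPM, and 26.1, 72.1 and 40.3 CPM in the Determination front, against 0 CPM, so that its fitted difference of -10.4614 (adjusted p = 0.042) has no measured size. These values rest on 49 Late PSM and 27 Determination front cells of 1 library at 96 h, and Hoxc8 lost its call without normalization factors.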

How the results depend on the processing

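The time comparison called 17 genes without the filter, 22 with pools of at least 5 cells, 76 in whole libraries alone, 63 with the replicate block, and 13 to 76 with 1 library left out. The Mesp2 comparison called 72 with DESeq2, 682 with cells assigned from all UMIs and 0 without the library term. The Hes7 comparison called 1 with DESeq2, 0 without the library term and 22 to 66 with 1 library left out. In it, Mesp2 itself moved between -0.8098 without replicate 1 and 0.7259 without the posterior part. The difference between clusters over time called 43 genes without normalization factors, and 61 to 100 with 1 library left out. At least 4-fold apart, and 2-fold with 10 CPM added, 24 and 40 genes were higher and 14 and 21 lower than in the remaining cells, 2 and 3 higher and 2 and 3 lower than in Early PSM, and 29 and 41 higher and 47 and 58 lower than in the Determination front. With 1 library left out, the counts were 110 to 120 higher and 120 to 173 lower than in the remaining cells, 429 to 893 and 149 to 890 against Early PSM, and 156 to 169 and 174 to 191 against the Determination front. The cause was not tested. Of the named genes, 67 of 68 values in the time comparison, 119 of 140 in the Mesp2 comparison and 104 of 180 in the Hes7 comparison kept their call and direction. Leaving out a library from the Mesp2 comparison, or the library at 96 h, leaves no residual degrees of freedom or no group, and the block with at least 20 cells was not run for the same reason. The 49 Late PSM cells at 96 h, with 942079 UMIs, limit every comparison over time.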
